A study of Mus musculus with 18 samples.

Results

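The liver transcripts described here were the chemokines and chemokine receptors, 47 of the 23111 named genes on the array. They were all genes whose symbol was Ccl, Cxcl, Ccr or Cxcr followed by a number, with or without 1 letter after it. They comprised 19 CC ligands, 13 CXC ligands, 9 CC receptors and 6 CXC receptors. A gene was taken as measured when the mean log2 value of at least 1 group of mice was 5 or more, and as dim when the means of all 6 groups were under 5. By this limit 13 members were measured and 34 were dim, and of all named genes 61.8% were dim. The measured members were the ligands Cxcl1, Cxcl9, Cxcl10, Cxcl12, Cxcl13, Cxcl14, Cxcl16, Ccl2, Ccl5, Ccl6, Ccl7 and Ccl9 and the receptor Cxcr4. Cxcl10 (highest group mean 5.0) and Ccl2 (5.21) lay just inside the limit and passed it in week 2 alone, and Ccl25 (4.96) and Ccl3 (4.76) lay just outside. A limit of 4.5 counted 19 members as measured and a limit of 5.5 counted 9.

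Gene expression was measured in 18 livers of adult male C57Bl/6N mice, 3 in each of 6 groups, with 1 whole-transcript Affymetrix array per mouse. The treated mice had received carbon tetrachloride (CCl4), a solvent that is turned into a toxic radical in hepatocytes and that causes liver fibrosis when given repeatedly, at 1.6 g/kg body weight in olive oil by intraperitoneal injection, 2 times per week for 2, 4, 6, 8 or 10 weeks, and were killed 2 days after the last injection. They were 12, 14, 16, 18 and 20 weeks old, so age and weeks of treatment cannot be told apart. The 3 control mice were 20 weeks old and are labelled as healthy, while the methods describe oil injections for 10 weeks and, in the array section, untreated mice. No control of a younger age was among the arrays.

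Chemokines are small secreted proteins that guide the movement of leukocytes through G protein-coupled receptors. Many are made on demand by resident macrophages, endothelium, stellate cells and hepatocytes after injury, and in the liver CCR2 and its ligand CCL2 are known for bringing in blood monocytes, CXCL1 and CXCL2 for bringing in neutrophils through CXCR2, and CXCL16 for holding lymphocytes that carry CXCR6. Some ligands, such as CXCL12, are instead made steadily.

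A few libraries stood apart and bear on the values below. Mice 1 and 2 of week 6 were nearly alike: their log2 differences over the 500 most variable genes had an SD of 0.137, and those of the other 17 pairs within groups 0.347 to 0.832, so their mean was counted as 1 sample and week 6 had 2 samples in every test. Mouse 2 of week 10 carried transcripts of the pancreatic enzymes Ctrb1 (7.67 against 4.5 to 5.07 in the other livers) and Cpb1 (6.42). The other listed pancreatic enzymes, Prss2 (3.91) and Cela1 (5.52), lay within the range of the other livers. The hepatocyte marker Alb was at 14.12 in all livers, which matches the labelled tissue and is close to the ceiling of the array. In whole liver, fewer cells of a type and less RNA per cell cannot be told apart, and this holds for every gene below.

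In all comparisons with control, the members called were higher in the treated livers and none was called lower. Of all genes only 2.12% were called lower in at least 1 of the 5 weeks. A gene was called when limma's adjusted p was under 0.05 and the fold change was above 1.5. At week 2 only Cxcl16 was called, 1 of 47, where 0.831% of all genes were called higher. At week 4 it was again Cxcl16 alone, beside 0.528% of all genes. At week 6 Cxcl16, Ccl6, Ccl3 and Cxcr4 were called, 4 of 47, beside 2.98% of all genes. At week 8 no member was called by limma, with 7 at an unadjusted p under 0.05, where 0.563% of all genes were called higher. At week 10 Cxcl16 was called, beside 1.31% of all genes. Over the mean of all CCl4 weeks Cxcl16 and Ccl6 were called, 2 of 47, beside 1.64% of all genes.

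The median log2 change over the 47 members, of which 34 were dim, was 0.05, 0.03, 0.01, 0.00 and 0.01 at weeks 2, 4, 6, 8 and 10, and the median over all genes lay between -0.02 and -0.01. Over the 13 measured members it was 0.63, 0.34, 0.19, 0.20 and 0.31, where the 8826 measured genes of the array had medians from -0.05 to -0.02. A gene could be measured through a single group in which it was high, as Cxcl10 and Ccl2 were, so these medians only describe the members. At an unadjusted p under 0.05 stood 10, 8, 10, 7 and 4 members in the same order of weeks, or 21.3%, 17%, 21.3%, 14.9% and 8.51% of them, beside 15.1%, 13.7%, 23.5%, 14.3% and 20.9% of all genes. The members' shares were thus above those of all genes at weeks 2 and 4, near or below them at weeks 6 and 8, and below them at week 10.

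**Figure D1:**
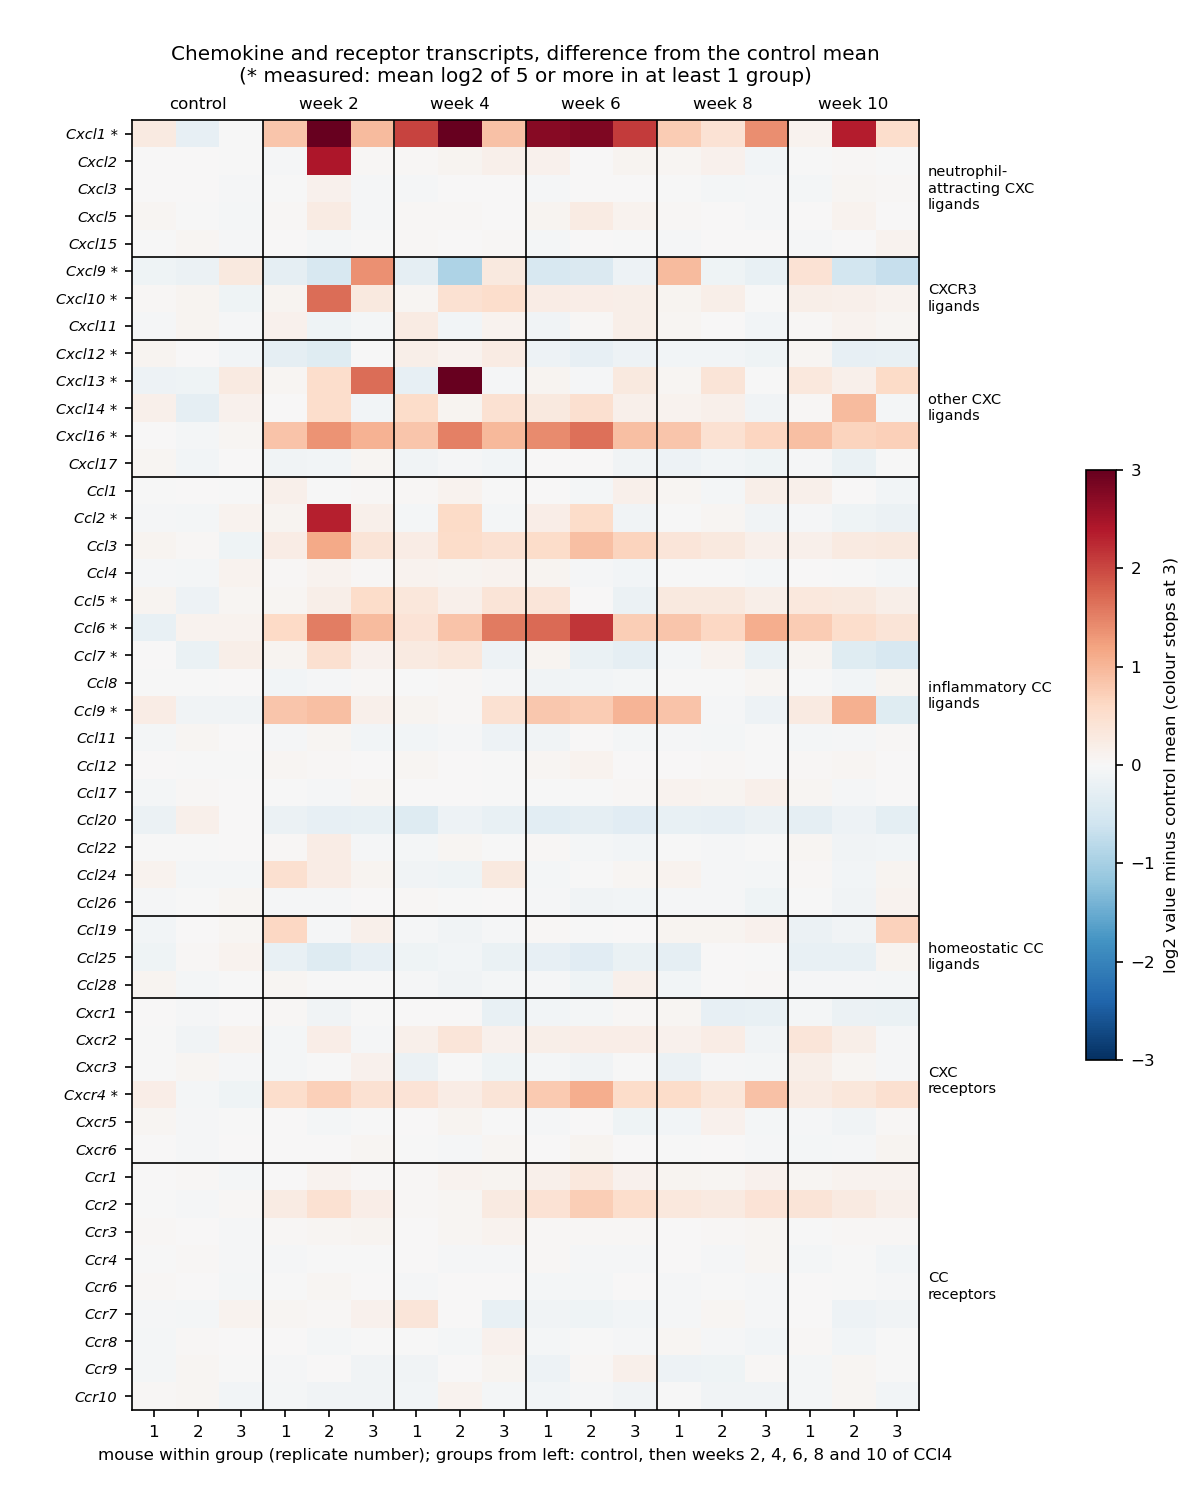
Each row is 1 of the 47 members, ordered by role, and each column is 1 liver, with the control and week groups from left to right. Colour gives the log2 value minus the mean of the 3 control livers, red for higher and blue for lower, and an asterisk marks the 13 measured members. Cxcl16, Ccl6, Cxcl1, Cxcr4, Ccl3 and Ccr2 were red in nearly every treated liver, while Cxcl2, Ccl2, Cxcl10 and Cxcl13 had their strongest red in single livers. Cxcl10 was also above all controls, mostly by little, in 11 of 15 treated livers.

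In the whole treated course, 4 members lay above all 3 control livers in every treated sample: Cxcl16, Ccl6, Ccl3 and Cxcr4. Of all genes 2.51% did so. No member lay below all controls in every treated sample, where 2.22% of all genes did. Week by week, 6, 10, 13, 10 and 8 members lay above all controls, beside 9.81%, 8.16%, 17.9%, 9.6% and 11.1% of all genes. Below all controls lay 1, 0, 6, 2 and 1 members, beside 12.1%, 10.4%, 24.3%, 11.2% and 14.5% of all genes.

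Cxcl16 was the member with the steadiest rise. It encodes a membrane-bound ligand of CXCR6 that also takes up oxidised lipoproteins. Its log2 value was 6.31, 6.25 and 6.37 in the control livers. It was 7.17, 7.65 and 7.34 at week 2, 7.13, 7.82 and 7.29 at week 4, and 7.73, 7.95 and 7.21 at week 6. It was 7.13, 6.76 and 6.95 at week 8 and 7.22, 6.98 and 7.01 at week 10. Every treated liver lay above every control, by at least the step from 6.37 to 6.76, and the spread between treated livers of a group (SD 0.13 to 0.45) was wider than that between controls (SD 0.06).

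The log2 change of Cxcl16 was 1.08 ± 0.19 (SE) at week 2 (adjusted p = 0.0114), 1.11 ± 0.19 at week 4 (0.0145) and 1.22 ± 0.21 at week 6 (0.0042), a 2.33-fold rise at week 6. It was 0.64 ± 0.19 at week 8, which was not called (adjusted p = 0.121), and 0.76 ± 0.19 at week 10 (0.0381). Over the mean of all CCl4 weeks it was 0.96 (95% confidence interval 0.64 to 1.28, adjusted p = 0.0021), which was called with any single liver left out. The week 2 call was lost without mouse 2 of week 2 (0.95, adjusted p = 0.063), the week 4 call without control mouse 2 (1.08, adjusted p = 0.052) and with only the groups compared in the fit (adjusted p = 0.0689). The week 10 call was lost without any 1 of the 3 control or 3 week 10 mice, at log2 changes of 0.69 to 0.81 and adjusted p of 0.0713 to 0.104.

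Weeks 8 and 10 together were lower in Cxcl16 than weeks 4 and 6 by 0.46 on the log2 scale (95% confidence interval -0.77 to -0.15), but this did not pass over all genes (adjusted p = 0.299). Its receptor gene Cxcr6 was dim, between 3.81 and 3.97 in all livers, and was not called in any comparison.

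**Figure D2:**
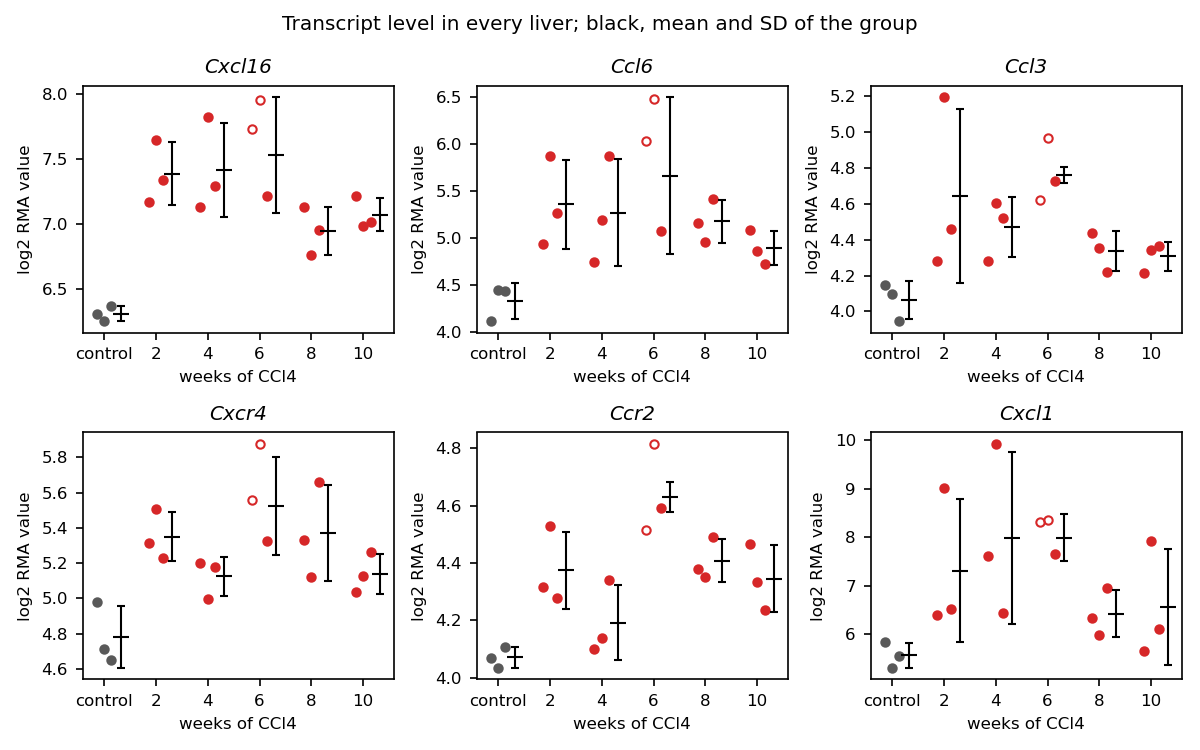
Each point is the log2 value of 1 liver for Cxcl16, Ccl6, Ccl3, Cxcr4, Ccr2 and Cxcl1, grey for control and red for CCl4. The black mark and bar are the mean and SD of the group, and the open points are the nearly identical mice 1 and 2 of week 6, counted as 1 sample. Cxcl16 separates from control in every group, while Cxcl1 spreads widely within weeks 2, 4 and 10.

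Ccl6 and Ccl3 were the inflammatory CC ligands that rose, both at week 6. CCL6, a mouse chemokine of macrophages that acts through CCR1, had log2 values of 4.11, 4.45 and 4.44 in the control livers. It reached 4.94, 5.88 and 5.27 at week 2, 4.75, 5.19 and 5.88 at week 4, and 6.03, 6.48 and 5.08 at week 6. It was 5.17, 4.96 and 5.42 at week 8 and 5.09, 4.87 and 4.73 at week 10. No treated liver overlapped with the controls, with mouse 3 of week 10 the closest to them, and within week 6 the liver of mouse 3 lay more than 1 below the average of mice 1 and 2.

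The log2 change of Ccl6 was 1.34 ± 0.37 (SE) at week 6 (adjusted p = 0.037) and 0.94 (95% confidence interval 0.39 to 1.5) over all CCl4 weeks (adjusted p = 0.0378). At weeks 2, 4, 8 and 10 it was 1.03, 0.94, 0.85 and 0.56, none of which was called. The week 6 call was lost without control mouse 1 (1.23, adjusted p = 0.102), mouse 2 (1.39, 0.0667) or mouse 3 (1.39, 0.0759), and with only the groups compared in the fit (0.094). The call over all weeks was lost without any of the 3 control mice (adjusted p = 0.0999 to 0.168), and narrowly without mouse 1 or 3 of week 8 or mouse 1 of week 10 (0.0527 to 0.0551).

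Ccl3, which encodes a chemokine of activated macrophages that binds CCR1, was dim, with log2 values of 4.15, 4.10 and 3.94 in the controls. The week 2 livers had 4.28, 5.20 and 4.46, the week 4 livers 4.28, 4.61 and 4.52, and the week 6 livers 4.62, 4.97 and 4.73. The week 8 livers had 4.44, 4.36 and 4.22 and the week 10 livers 4.22, 4.34 and 4.36. All treated livers were above all controls, the lowest of them by less than 0.1, and mouse 2 of week 2 was the highest of all.

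The log2 change of Ccl3 was 0.70 ± 0.20 (SE) at week 6 (adjusted p = 0.0416) and 0.44 over all CCl4 weeks (adjusted p = 0.0681). The week 6 call was lost without any of the 3 control mice (adjusted p = 0.0712 to 0.119), without mouse 2 (0.0737) or mouse 3 (0.159) of week 6, and without any 1 mouse of week 8 or week 10 (0.0502 to 0.0532). Without mouse 1 of week 2, Ccl3 was also called at week 2, at 0.76 (adjusted p = 0.0432).

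Ccl6 and Ccl3 lie in a row of CC genes on chromosome 11, in the order Ccl5, Ccl9, Ccl6, Ccl3 and Ccl4 (GRCm38.p6), and the row did not move as a block. At week 6 the log2 changes in that order were 0.00, 0.91, 1.34, 0.70 and -0.02. Ccl4, the nearest neighbour of Ccl3 and like it a chemokine of activated macrophages, was dim. It stayed between 4.33 and 4.52 in all livers, near the floor of the array. A second row on the same chromosome, Ccl2, Ccl7, Ccl11, Ccl12, Ccl8 and Ccl1, had week 6 changes from -0.16 to 0.13, none of them called. Of this row only Ccl2 and Ccl7 were measured.

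Ccl9, which encodes a CCR1 ligand of mouse macrophages, had log2 values of 10.63, 10.29 and 10.30 in the controls and 11.22, 11.18 and 11.43 at week 6. The week 2 livers had 11.25, 11.31 and 10.55, the week 4 livers 10.50, 10.45 and 10.87, the week 8 livers 11.25, 10.37 and 10.26, and the week 10 livers 10.68, 11.47 and 10.05. The week 6 livers were all above the controls, while in each of the other weeks at least 1 liver overlapped with them. The log2 change at week 6 was 0.91 ± 0.38 (SE), which was not called (adjusted p = 0.162), though it was with only the groups compared in the fit (0.0241).

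Cxcr4 was the sole measured receptor, and it rose at week 6. It encodes the receptor of CXCL12 and is carried by most leukocytes. Its log2 values were 4.98, 4.71 and 4.65 in the controls, 5.31, 5.5 and 5.23 at week 2, and 5.20, 5.0 and 5.18 at week 4. They were 5.56, 5.88 and 5.33 at week 6, 5.33, 5.12 and 5.66 at week 8, and 5.04, 5.13 and 5.26 at week 10. Every treated liver was above every control, but mouse 2 of week 4 and mouse 1 of week 10 by little.

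The log2 change of Cxcr4 was 0.74 ± 0.16 (SE) at week 6 (adjusted p = 0.0112), and the call held with any single liver left out (0.66 to 0.94), while with only the groups compared in the fit it was narrowly lost (adjusted p = 0.0537). Over all CCl4 weeks it was 0.52 (95% confidence interval 0.28 to 0.76, adjusted p = 0.0122), under the fold limit. Without control mouse 1, the highest of the 3, it was 0.62 and called (0.0183). At week 8 the change of 0.59 had an adjusted p of 0.0552 and was called without mouse 2 of week 8 (0.72, 0.0348) or without mouse 2 of week 6 (0.0438).

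The ligand of this receptor, Cxcl12, is made steadily by liver endothelium and stromal cells, and its changes were small and not called. Its values ran from 9.98 to 10.13 in the controls and from 9.70 to 10.31 in the treated livers. All week 4 livers (10.15 to 10.31) lay above all controls and all week 6 livers (9.82 to 9.92) below them. The log2 changes were -0.21, 0.18, -0.17, -0.10 and -0.15 at weeks 2, 4, 6, 8 and 10, and over all CCl4 weeks -0.09 (95% confidence interval -0.24 to 0.06, adjusted p = 0.51), one of the 3 lowest changes among the measured members. Week 6 was lower than week 4 by 0.35 (95% confidence interval -0.56 to -0.13), which did not pass over all genes (adjusted p = 0.161).

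Ccr2, the receptor gene that marks inflammatory monocytes, was dim, and nearly every treated liver lay above the controls. Its log2 values were 4.07, 4.04 and 4.11 in the controls, 4.32, 4.53 and 4.28 at week 2, and 4.10, 4.14 and 4.34 at week 4. They were 4.52, 4.82 and 4.59 at week 6, 4.38, 4.35 and 4.49 at week 8, and 4.47, 4.34 and 4.24 at week 10. The week 6 livers were the highest group, with no overlap with the controls, and only mouse 1 of week 4 fell among them.

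The log2 change of Ccr2 was 0.56 ± 0.09 (SE) at week 6 (adjusted p = 0.0027), a 1.47-fold difference that was just under the fold limit and so was not called. It was called without mouse 1 (0.63, adjusted p = 0.002) or mouse 3 (0.59, 0.0142) of week 6. Against week 4, week 6 was higher by 0.44 (95% confidence interval 0.24 to 0.63, adjusted p = 0.0635). With no fold limit 7 members passed at week 6, beside 9.77% of all genes: the 4 called ones, Ccr2, Ccr1 (0.18, adjusted p = 0.0206) and Ccl20 (-0.32, 0.0319). Over all CCl4 weeks 5 passed in this way, Cxcl16, Ccl6, Cxcr4, Ccr2 (0.32, adjusted p = 0.008) and Ccl20 (-0.25, 0.0207), beside 8.81% of all genes. Ccr1 and Ccl20 were both dim. CCR1 is the receptor of CCL3, CCL6 and CCL9, and CCL20 is the ligand of CCR6. Ccl20 ran from 4.29 to 4.63 in the controls and from 4.09 to 4.32 in the treated livers, which overlapped.

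The remaining 13 receptor genes, counting Ccr1, were all dim and not called in any of the 8 comparisons. At week 6 the changes of the 9 CC receptors ran from -0.10 to 0.56 and those of the 6 CXC receptors from -0.07 to 0.74, with the upper ends at Ccr2 and Cxcr4. Cxcr2, the receptor of CXCL1 and CXCL2 on neutrophils, ran from 4.05 to 4.28 in the controls and from 4.07 to 4.53 in the treated livers.

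**Figure D3:**
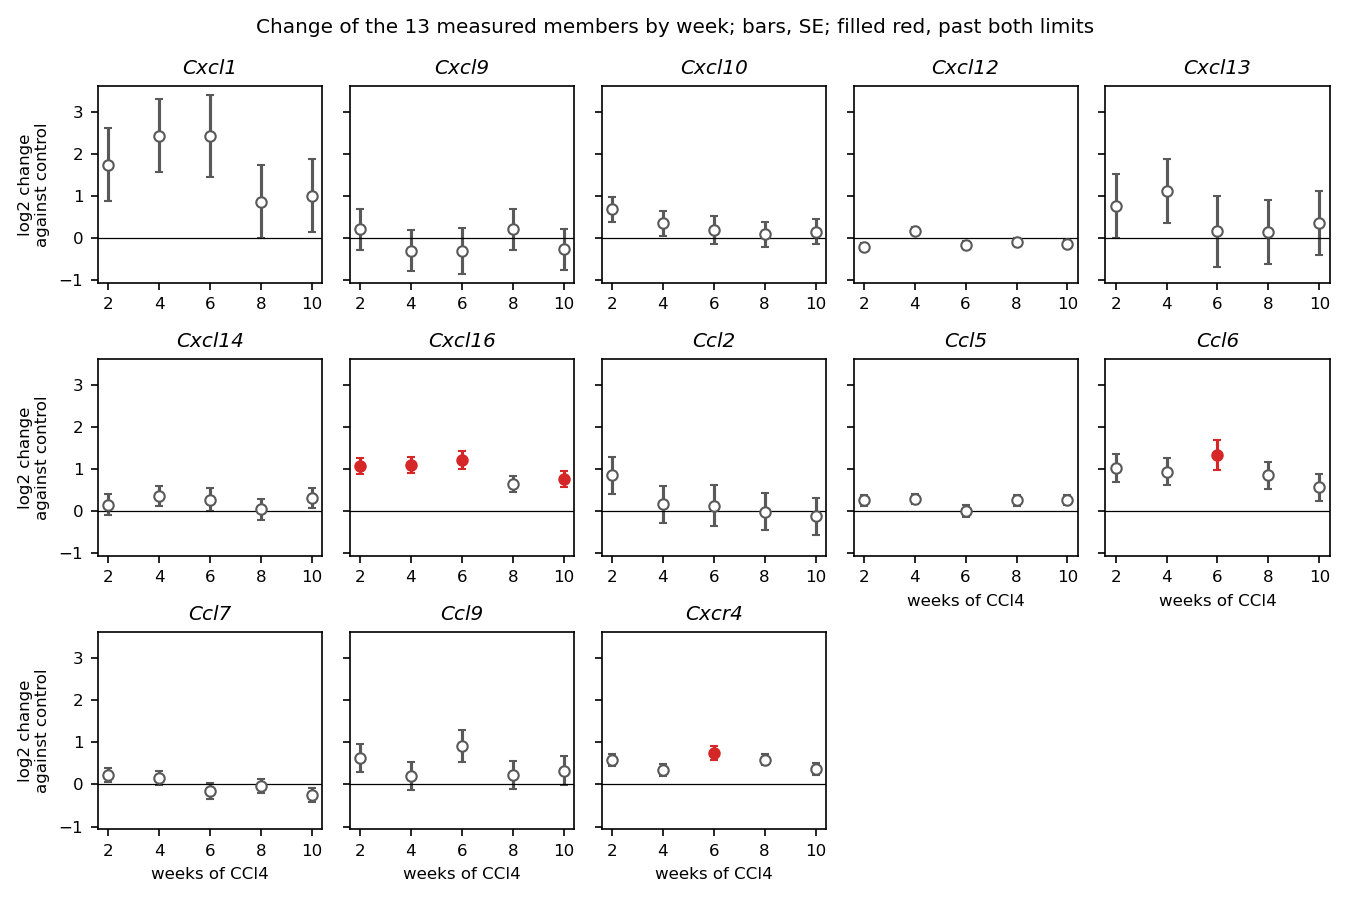
Each panel is 1 of the 13 measured members, with the log2 change against control on the vertical axis and weeks of CCl4 on the horizontal axis. Bars are the standard errors of the fit, and filled red points passed both the adjusted p and the fold limit. Cxcl16 was filled at weeks 2, 4, 6 and 10 and Ccl6 and Cxcr4 at week 6, while Cxcl1 had the highest open points.

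Cxcl1, which encodes a ligand of CXCR2, had the largest mean difference of all members over the CCl4 weeks and was not called. The livers of a group differed widely. Its log2 values were 5.83, 5.31 and 5.56 in the controls. They were 6.40, 9.01 and 6.53 at week 2, 7.61, 9.93 and 6.44 at week 4, and 8.31, 8.36 and 7.66 at week 6. They were 6.33, 5.99 and 6.95 at week 8 and 5.66, 7.93 and 6.10 at week 10. Of the treated livers only mouse 1 of week 10 lay among the controls, and mouse 2 was far above the rest at weeks 2, 4 and 10, while at week 6 all livers were high.

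The log2 changes of Cxcl1 were 1.74, 2.43, 2.43, 0.86 and 1.00 at weeks 2, 4, 6, 8 and 10. The SD within groups was 1.47, 1.78, 0.48, 0.49 and 1.20 in the same order, and 0.26 in the controls. Over all CCl4 weeks the change was 1.69 ± 0.68 (SE, 95% confidence interval 0.23 to 3.16), and limma's adjusted p was 0.153. At week 6 the adjusted p was 0.144 with all groups in the fit. It was 0.0107 with only control and week 6 in the fit and 0.0266 without mouse 2 of week 2 and mouse 2 of week 4, a setting chosen after the data were seen. Weeks 8 and 10 were lower than weeks 4 and 6 by 1.5 (95% confidence interval -2.91 to -0.09, adjusted p = 0.491).

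The other neutrophil-attracting CXC ligands were dim. Cxcl2 stood at 6.33 in mouse 2 of week 2 and between 3.83 and 4.07 in all other livers. Cxcl3, Cxcl5 and Cxcl15 stayed between 3.68 and 4.17 in all livers. None of the 5 neutrophil-attracting ligands was called in any comparison. The 7 neutrophil markers were also dim, and none of them was called.

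The neutrophil markers did not all stay level. Ly6g was between 3.79 and 3.93 in all livers. S100a8 lay above all controls in 14 of 15 treated livers, Retnlg in 13 and S100a9 in 10. The other markers did not follow: Camp lay above all controls in 6 and below them in 7. Mpo lay above in 4 and below in 2, and Elane above in 0 and below in 4. Retnlg (4.76) and S100a8 (4.44) were highest in mouse 2 of week 2 and S100a9 (4.41) in mouse 2 of week 4, which were the livers with the highest Cxcl1. The summed level of the 7 markers on the log2 scale was 7.14 and 7.0 in these livers, 6.77 to 6.79 in the controls and 6.76 to 6.99 in the other treated livers, with mouse 1 of week 10, whose Cxcl1 lay among the controls, at 6.99. The part of neutrophils in the Cxcl1 values was not tested.

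Most livers with high Cxcl1 values carried other chemokine transcripts as well. Of the 8 livers with Cxcl1 more than 1 above the control mean, 4 also had Cxcl16 over that line, and mouse 1 of week 4 (7.61) had Cxcl1 alone. Both counts hold mice 1 and 2 of week 6, the nearly alike pair, as separate livers. Mouse 3 of week 2 had Cxcl16 but not Cxcl1 over the line. Mouse 2 of weeks 2, 4 and 10 had no member over the line in common besides Cxcl1 and, in weeks 2 and 4, Cxcl16. Mouse 2 of week 2 had 7 members more than 1 above the control mean on the log2 scale: Cxcl1, Cxcl2, Ccl2, Ccl3, Ccl6, Cxcl10 and Cxcl16. Its Ccl2 was 6.68 where the other 17 livers had 4.18 to 4.94, and its Cxcl10 was 5.99 where the others had 4.20 to 4.85. The same liver had Il1b, the gene of the cytokine interleukin 1 beta, at 9.03 against 4.02 to 4.48 outside this liver and mouse 2 of week 4, and the monocyte gene Cd14 at 7.03 against 4.19 to 5.66.

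Mouse 2 of week 4 had 3 members over that line, Cxcl1, Cxcl13 and Cxcl16, with Il1b at 6.97. Its Cxcl13, the ligand that draws B cells through CXCR5, was 8.25 against 4.40 to 6.32 in the other livers, while its Cxcl2 (4.00) and Ccl2 (4.94) were far below those of mouse 2 of week 2. Mouse 3 of week 2 had Cxcl9 at 8.03, Cxcl13 at 6.32 and Cxcl16 at 7.34, with Il1b at 4.29. Mouse 2 of week 10, the liver with the pancreatic transcripts, had Cxcl1 at 7.93 and Ccl9 at 11.47. Within groups, 6, 4, 1, 1 and 4 members spanned more than 1 at weeks 2, 4, 6, 8 and 10. These were 12.8%, 8.51%, 2.13%, 2.13% and 8.51% of members, beside 0.969%, 1.28%, 0.545%, 1.29% and 1.55% of all genes. In the controls no member did so, beside 0.515% of all genes. The wide ranges did not all come from the livers named here. At week 4 the highest liver was mouse 2 for Cxcl1 and Cxcl13 and mouse 3 for Cxcl9 and Ccl6.

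**Figure D4:**
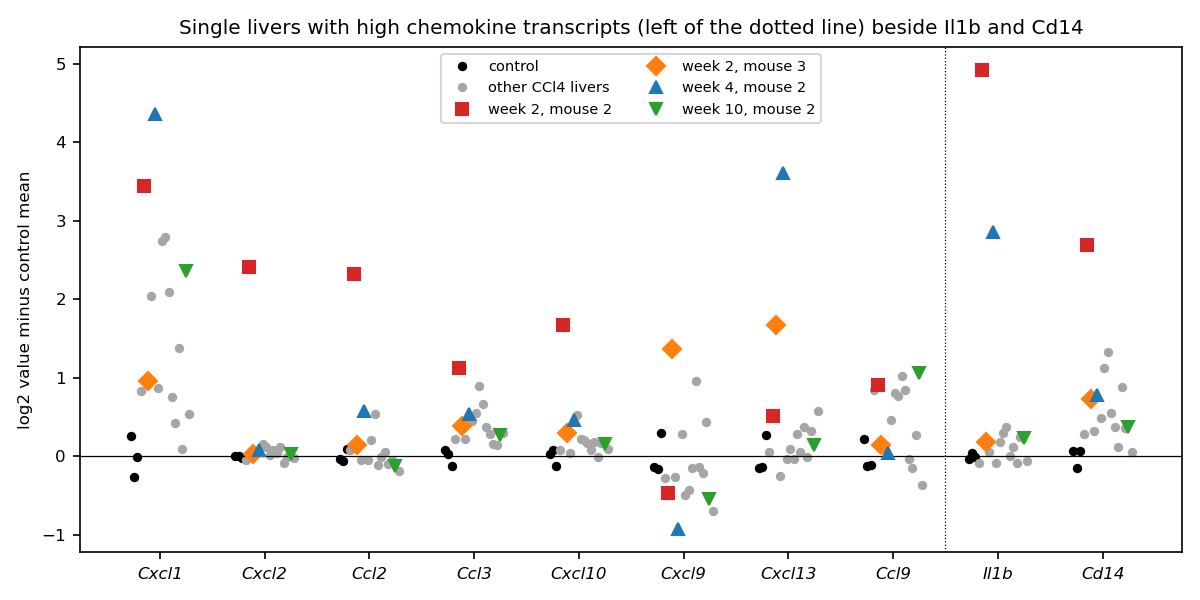
Each point is 1 liver, given as log2 value minus the mean of the 3 controls, for 8 chemokine genes and, right of the dotted line, Il1b and Cd14. Controls are black, the named livers have coloured symbols and the other treated livers are grey. Mouse 2 of week 2 stands apart in Cxcl2, Ccl2, Cxcl10, Il1b and Cd14, and mouse 2 of week 4 in Cxcl1 and Cxcl13.

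The start regions of Cxcl1, Cxcl2 and Cxcl10, which were high together in mouse 2 of week 2, are shown because Cxcl1 and Cxcl2 are close neighbours on chromosome 5 that hold the same motif. Cxcl3 was dim in all livers, with its highest value (3.86) in that liver. It is shown as well because it lies near Cxcl1 and Cxcl2 and holds the motif too. Each run is the 220 bases before the annotated start from RefSeq (GRCm38.p6), and the promoter table held 33 of the 47 members. Of the other members high in that liver, Ccl3 and Ccl6 held none of the motifs marked here and are not printed, and Ccl2 and Cxcl16 were not among the 33. Capitals in Cxcl1, Cxcl2 and Cxcl3 mark the motif GGGANTTTCC, a strict form of the NF-kappaB site, and in Cxcl10 they mark GAAANNGAAA, the interferon-stimulated response element, and the looser NF-kappaB consensus.
Cxcl1 (chr5:90891025-90891244, plus strand): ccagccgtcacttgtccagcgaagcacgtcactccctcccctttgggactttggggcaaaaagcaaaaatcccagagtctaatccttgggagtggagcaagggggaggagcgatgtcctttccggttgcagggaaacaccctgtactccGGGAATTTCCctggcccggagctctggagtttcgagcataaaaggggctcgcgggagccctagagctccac
Cxcl2 (chr5:90903679-90903898, plus strand): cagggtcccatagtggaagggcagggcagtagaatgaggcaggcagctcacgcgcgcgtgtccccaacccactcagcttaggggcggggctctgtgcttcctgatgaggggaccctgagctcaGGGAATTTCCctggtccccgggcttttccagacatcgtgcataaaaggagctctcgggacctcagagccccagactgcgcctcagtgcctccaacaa
Cxcl3 (chr5:90785881-90786100, plus strand): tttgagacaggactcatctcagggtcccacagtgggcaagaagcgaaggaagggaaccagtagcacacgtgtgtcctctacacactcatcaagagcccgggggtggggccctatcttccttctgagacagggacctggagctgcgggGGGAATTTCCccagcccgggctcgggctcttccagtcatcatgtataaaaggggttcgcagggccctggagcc
Cxcl10 (chr5:92348890-92349109, minus strand): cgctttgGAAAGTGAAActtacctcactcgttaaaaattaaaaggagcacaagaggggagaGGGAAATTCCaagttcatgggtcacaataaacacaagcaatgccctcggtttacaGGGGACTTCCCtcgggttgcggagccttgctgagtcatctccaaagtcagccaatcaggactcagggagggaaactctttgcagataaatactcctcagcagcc

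Searched on both strands in windows of 300 bases (250 before to 50 after the start), GGGANTTTCC was found in 0.411% of all 32851 promoters and in 4 members, Cxcl1, Cxcl2, Cxcl3 and Ccr3. Its first base lay 71, 97 and 73 bases before the start of Cxcl1, Cxcl2 and Cxcl3. Cxcl3 carried the same motif and was dim, between 3.68 and 3.86 in all livers, with its highest value in mouse 2 of week 2. GAAANNGAAA was found in 3.44% of promoters and in Ccl19, Cxcl10 and Cxcl14, and the looser NF-kappaB consensus, which contains the strict motif, in 8.46% of promoters and 10 members. A match is a description of letters and not a measured site.

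The CXCR3 ligands, which are induced by interferon gamma and draw T and NK cells, were not tested as a group. Cxcl9 was 6.53, 6.49 and 6.95 in the controls and ran from 5.73 to 8.03 in the treated livers, which lay on both sides. Its log2 change over all CCl4 weeks was -0.09 (95% confidence interval -0.92 to 0.73, adjusted p = 0.934), one of the 3 lowest among the measured members, and its sign turned without control mouse 3 (0.056). Cxcl10 was higher than control by 0.68 at week 2 (adjusted p = 0.287) and by 0.08 to 0.35 in the other weeks. It lay above all controls in 11 of 15 treated livers, among them all those of weeks 6 and 10, and below all controls in none. Cxcl11 stayed between 4.19 and 4.56 in all livers. None of the 3 was called in any comparison, and the gene of interferon gamma itself lay between 3.91 and 4.14 in all livers.

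Among the other CXC ligands, Cxcl13 and Cxcl14 were measured and not called. Cxcl13 was 4.51, 4.52 and 4.93 in the controls and, outside mouse 2 of week 4 and mouse 3 of week 2, ran from 4.40 to 5.23 in the treated livers. Its log2 change was 1.11 (95% confidence interval -0.54 to 2.75) at week 4, with mouse 2 as the single high liver. Cxcl14, a ligand made by epithelia and fibroblasts, was 4.83 to 5.25 in the controls and 4.98 to 6.05 in the treated livers, with the top value in mouse 2 of week 10. Cxcl17, a ligand of mucosal surfaces, was dim.

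Of the 16 inflammatory CC ligands, 5 were measured, and apart from Ccl6 and Ccl3 none was called. Ccl2 differed from control by 0.85 at week 2 (95% confidence interval -0.10 to 1.80, adjusted p = 0.405) through mouse 2, since mice 1 and 3 of that week had 4.44 and 4.5 and the controls 4.30 to 4.46. At weeks 4, 6, 8 and 10 its change was 0.16, 0.13, -0.02 and -0.12. Ccl7, like CCL2 a ligand of CCR2, had a log2 change of -0.01 over all CCl4 weeks (95% confidence interval -0.30 to 0.27, adjusted p = 0.971), with its highest value of 5.57 in mouse 2 of week 2. That sign turned without control mouse 3 (0.075), mouse 3 of week 4 (0.015), mouse 3 of week 6 (0.0050) or mouse 3 of week 10 (0.0072).

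Ccl5, made by T cells and NK cells, was 5.49, 5.25 and 5.45 in the controls and 5.21 to 5.94 in the treated livers. Its log2 change was 0.25, 0.29, 0.00, 0.25 and 0.26 at weeks 2, 4, 6, 8 and 10, and 0.21 over all weeks (95% confidence interval 0.00 to 0.42, adjusted p = 0.212). The dim CC ligands without a call were Ccl1, Ccl4, Ccl8, Ccl11, Ccl12, Ccl17, Ccl20, Ccl22, Ccl24 and Ccl26. The 3 homeostatic CC ligands, Ccl19, Ccl25 and Ccl28, were dim too, with changes over all CCl4 weeks from -0.18 to 0.09. Over all 34 dim members the values ran from 3.68 to 6.33, and only Cxcl2, Ccl3 and Ccl25 exceeded 5 in any liver.

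Between the treated groups no member differed past the limits. Week 6 against week 4 gave 0 calls by limma, beside 0.169% of all genes called in either direction. At an unadjusted p under 0.05 stood 5 members, or 10.6% of them, beside 12.8% of all genes. Weeks 8 and 10 against weeks 4 and 6 gave 0 calls, and of all genes none was called. At an unadjusted p under 0.05 stood 3 members, or 6.38% of them, beside 9.47% of all genes. They were Cxcl1, Ccl3 and Cxcl16, all of them lower later, and their share was below that of all genes.

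Calls were also made among other genes of the chemokine system. No call was made among 12 ligands and receptors with other names, such as the fractalkine pair Cx3cl1 and Cx3cr1, the platelet chemokine genes Pf4 and Ppbp and the scavenger receptors of the Ackr family, though Pf4 was just under the fold limit at week 6 (log2 change 0.54, adjusted p = 0.0078). Of 4 proteases that cut chemokines, Mmp2, a gelatinase of stellate cells, was higher at every week with log2 changes from 1.5 to 2.46. Mmp12, the macrophage elastase, was called at week 6 (log2 change 3.12 ± 0.53 (SE), adjusted p = 0.0038) and over all CCl4 weeks (1.76). Dpp4 and Mmp9 were not called.

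Of 20 genes that signal below the receptors, 5 were called in at least 1 week (25% of them) and all were higher, where 3.41% of all genes were called higher in at least 1 week and 2.12% lower. Rgs2, a brake on G protein signalling, was called at each of the 5 weeks, with log2 changes of 1.81, 2.19, 2.11, 2.32 and 2.87. Dock2, which activates Rac in migrating leukocytes, was called at weeks 2, 4 and 6, with changes of 0.65, 0.64 and 0.73. Its partner Elmo1 (0.90) and the G protein subunit Gnai2 (0.63) were called at week 6, and Arrb2 (0.68), which takes receptors off the surface, at week 2. With no fold limit, 9 of the 20 were higher and 1 was lower at week 6, beside 9.77% of all genes in either direction. The lower one was Ptk2b, which encodes a kinase that responds to calcium and lay below all controls in 13 of 15 treated livers. Its log2 change at week 6 was -0.57, just under the fold limit (adjusted p = 0.0294), and its change over all CCl4 weeks was -0.40 (adjusted p = 0.0323). Of 7 inducers of chemokines, among them Il1b, Tnf and Il6, none was called.

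The summed markers of macrophages, like Cxcl16, Ccl6 and Ccl3, were above the controls in every treated liver. Among single livers the highest was not always the same. The marker sum, Cxcl16 and Ccl6 were highest in mouse 2 of week 6, Ccl3 in mouse 2 of week 2 and Cxcl1 in mouse 2 of week 4. Of the 8 listed macrophage and monocyte markers 7 were tested, and 4, 4, 5, 1 and 4 were called higher at weeks 2, 4, 6, 8 and 10. Their summed level on the log2 scale ran from 8.82 to 9.47 in the controls, 10.42 to 10.90 at week 2, 10.30 to 10.88 at week 4, 10.56 to 11.24 at week 6, 9.80 to 10.22 at week 8 and 10.05 to 10.50 at week 10. Weeks 2, 4 and 6 were thus the highest and week 8 the lowest of the treated groups. Cxcl16 had the same lowest week, with a mean of 6.95 at week 8 and 7.07 at week 10, while Ccl6 (5.18 and 4.89) and Ccl3 (4.34 and 4.31) were lowest at week 10. The lowest treated liver was also at week 8 for the summed markers of Kupffer cells (9.54 to 10.24 in that week) and endothelium (10.46 to 10.59). For the stellate cell and myofibroblast markers it was at week 4 (10.19 to 11.17). Adgre1, the gene of a surface antigen of mouse macrophages, was higher by 1.22 to 1.98 in all weeks, and the Ly6c2 marker was dim at 3.93 to 4.48.

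The 4 Kupffer cell markers had 2, 0, 2, 0 and 1 calls over the same weeks, all of them of Cd5l or Vsig4. Clec4f and Timd4 were not called, and Timd4 at week 10 (4.14, 4.45 and 4.36) lay below the controls (4.48 to 4.81). The 7 stellate cell and myofibroblast markers had 2, 2, 5, 2 and 3, with their summed level at 9.51 to 9.89 in the controls and 11.36 to 12.32 at week 6. Of the 7 T cell markers tested none was called, and Cd3d, Cd3e and Cd3g lay between 3.92 and 4.36 in all livers, while Trbc1 (5.10 to 6.24) and Trbc2 (6.68 to 7.75) were brighter. The NK and B cell markers were not called either and were dim apart from Klrb1c (4.77 to 5.41). The part of these cell types in the chemokine values was not tested.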

How the data were processed

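Members and gene lists were chosen with earlier results of these data known. The authors preprocessed the Affymetrix Mouse Gene 2.0 ST arrays with affyPLM (RMA) and a Brainarray definition version 22 on Entrez genes. The deposited values are log2 intensities, and every array has a median of 4.347. Of 23748 features, 23111 had 1 gene symbol and were tested, and 637 did not. The number of arrays limits the precision.

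Group means of 17 samples (mice 1 and 2 of week 6 averaged) were fitted in 1 limma model (limma 3.58.1, R 4.3.3), with Benjamini-Hochberg adjustment over all genes in each of 8 comparisons. For a call both the adjusted p (under 0.05) and the fold change (over 1.5) had to pass. The 5 weekly comparisons share the control mice. The labels name the replicates as biological. The text names every member called, the 3 largest rises and falls among measured members, and others by counts and ranges. The code was tested on simulated data. Alternatives were separate arrays, a replicate block, other limma settings, a filter on dim genes, repeated normalization and leaving out each array. Motifs were searched in RefSeq promoters with Python.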

Additional observations from a re-analysis of the deposited data

How the results depend on the processing

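Groups of 3 mice limit every call. Leaving out 1 mouse at a time, the number of members called ranged from 0 to 2 at week 2, 0 to 1 at week 4, 2 to 5 at week 6, 0 to 1 at week 8, 0 to 1 at week 10 and 1 to 2 over all CCl4 weeks, and stayed at 0 for week 6 against week 4 and for weeks 8 and 10 against weeks 4 and 6. With only the groups compared in the fit, 0 members were called at week 4 and 1 at week 8 (Cxcl16). At week 8, 1 member (Cxcr4) was also called with an intensity trend and robust prior and with dim genes left out. Without a fold limit, 7 were called at week 6 and 5 over all CCl4 weeks. Without mouse 2 of week 2 and mouse 2 of week 4, chosen after seeing the data, 1 was called over all CCl4 weeks (Cxcl16), and Cxcl9 turned to 0.039 there.

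Replicate numbers did not pair the mice: of 45 pairs with the same number, 7 correlated above 0.1 (range -0.217 to 0.352). With the number as a replicate block on 18 separate arrays, 5 members were called at week 6, Cxcl1 (2.54, adjusted p = 0.0354) being the added one, and the numbers in the other comparisons were those of the fit without the block. With 1 mouse left out, the change over all CCl4 weeks ran from -0.21 to 0.056 for Cxcl9 and from -0.11 to 0.075 for Ccl7. Cxcl9 changed sign without control mouse 3 (0.056), and Ccl7 without control mouse 3 (0.075) or mouse 3 of week 4 (0.015), week 6 (0.0050) or week 10 (0.0072). Of 468 values of single genes under these settings, 422 kept their direction and side of the limits, and 6 changed sign. Dim genes lie near the floor of the array, where differences are compressed.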
